A study of Rattus norvegicus with 10 samples.

Results

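The mitochondrial ribosomal protein genes of rat liver were compared between 5 DEN/TAA rats and 5 control rats. Members were the genes whose rat symbol begins with Mrpl (large subunit) or Mrps (small subunit) followed by a digit. They numbered 66 genes, read by 77 probes, of 13832 named genes and 41012 probes on the array. The large subunit accounted for 42 of them and the small subunit for 24.

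All rats were male Wistar, and liver RNA was labelled with Cy3 and hybridised to 1 Agilent whole rat genome array per rat. The DEN/TAA rats had received 1 intraperitoneal dose of diethylnitrosamine (DEN, a liver carcinogen) at 200 mg/kg when 6 weeks old. Injections of thioacetamide (TAA, a liver toxin used to bring about fibrosis) at 200 mg/kg began 2 weeks later and were given 2 times a week, in cycles of 3 weeks with and 1 week without treatment. The control rats had received vehicle alone. The labels give an age of 23 weeks for every rat and also a treatment period of 23 weeks. Both cannot hold if that period began with DEN at 6 weeks of age, so the age at sampling is uncertain. The p-values below measure the spread between these 10 rats.

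The mitochondrial ribosome, or mitoribosome, translates the few messenger RNAs of the mitochondrial genome, which encode core subunits of the respiratory chain and of ATP synthase. All of its proteins are encoded in the nucleus, made in the cytosol and imported, while its ribosomal RNAs come from the mitochondrial genome. Some of its proteins have counterparts in the bacterial ribosome and others are found only in mitochondria, and hepatocytes, which are rich in mitochondria, hold many such ribosomes.

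The arrays themselves differed between the groups before any gene was considered. Spots well above background made up 40.6% ± 4.42 of the spots on the DEN/TAA arrays and 25.5% ± 6.21 on the control arrays (SD, n = 5 each, exact permutation test, two-sided p = 0.00794, the smallest this design allows). Each value below is a scaled log2 signal: the array's log2 signal minus its own 75th percentile over the 6229 probes well above background on all 10 arrays, so that 0 is the signal at that percentile. A probe's value can be compared between rats but not with that of another probe. Liver cell markers moved with the groups as well. Of 8 hepatocyte markers tested 6 were lower, with a summed linear signal (in units of the scaling percentile) of 97.2 to 117.2 in DEN/TAA livers and 188.4 to 318.1 in control livers. Of 7 stellate cell and myofibroblast markers 6 were higher, with summed signals of 3.31 to 5.38 in DEN/TAA livers and 0.793 to 1.26 in control livers, and the summed signal of 6 macrophage markers was 6.43 to 9.14 in DEN/TAA livers and 1.85 to 4.34 in control livers. That of 3 biliary markers was 0.559 to 1.00 in DEN/TAA livers and 0.058 to 0.122 in control livers. The 3 T and NK cell markers tested were all above background on 0 control arrays, so no sum is compared for them. The summed signal of 3 proliferation markers was 0.339 to 0.513 in DEN/TAA livers and 0.121 to 0.213 in control livers. That of 2 neutrophil markers was 0.505 to 1.48 in DEN/TAA livers and 0.019 to 0.075 in control livers. No count of calls is given for these last 5 lists, because Cd163, Krt19, Spp1, Cd3g, Zap70, Nkg7, Ccnb1 and S100a8 were above background on 0 control arrays and passed the filter only through DEN/TAA livers. Where such genes enter a control sum, part of it is background signal, so those ranges only describe the arrays. Of 3 endothelial and 3 erythroid markers 2 each were higher, and no B cell marker was tested. The summed endothelial signal overlapped, at 1.24 to 1.73 in DEN/TAA livers and 1.00 to 2.11 in control livers. So did the erythroid sum, at 0.25 to 1.26 in DEN/TAA livers and 0.05 to 0.375 in control livers. Beside these counts, 39.2% of all genes tested were called higher and 16.3% lower. The part of these shifts in the results below was not tested, and in such bulk tissue fewer cells of a type and less RNA per cell cannot be told apart.

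Some letters were found in a larger share of member promoters than of promoters of genes tested, though none of them in most members. The choice of members did not use these letters. Of the 66 members, 54 had an entry in the RefSeq promoter table (GRCr8, 250 bases before to 50 after the start of the gene), and both strands were searched. The letters AAGATGGC, the core of the motif bound by the transcription factor YY1, were present in 22.2% of member promoters, against 5.51% of the 5682 promoters of genes tested here. They lay within 30 bases of the start in 18.5% of member promoters and 3.29% of those of genes tested. These letters include ATG, and whether a match is part of the coding start of the gene was not tested. Of the 12 members that hold these letters 2 were higher in DEN/TAA livers, 1 was lower and 9 had no call. The letters CCGGAAG, the core of the motif of ETS factors such as GABPA, were found in 35.2% of member promoters and 20.2% of promoters of genes tested. Of the 19 members that hold these ETS letters 2 were higher in DEN/TAA livers, 4 were lower and 13 had no call. The palindromic motif of the respiratory factor NRF1 was found in 7.41% of member promoters and 2.04% of promoters of genes tested. A looser form that allows any base at 1 place, which includes it, was found in 16.7% and 10.8%. The letters TATAAA, at any place in the stretch searched, were present in 13% of member promoters and 7.8% of promoters of genes tested. Over all coding promoters their share was 13.1%, close to that of the members. A match is a description of letters and not a binding site.

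The start regions below were chosen because they hold these letters close to the start, or because the gene faces a neighbour. Capitals mark the YY1 or ETS letters on either strand. The first 4 run from 40 bases before to 30 after the start and carry the YY1 letters, in Mrps30 and Mrpl49, which were higher in DEN/TAA livers, in Mrpl36, which was lower, and in Mrps18a, 1 of the 9 with no call. The last 3 run from 80 before to 30 after. Mrpl52 (lower) and Mrpl53 (higher) each hold the ETS letters at 2 places, and Mrpl47 (higher) holds none of the letters searched in the stretch shown.
Mrps30 (GRCr8, chr2:52195875-52195944, minus strand): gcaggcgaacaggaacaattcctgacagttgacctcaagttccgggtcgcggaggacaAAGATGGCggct
Mrpl49 (GRCr8, chr1:212779298-212779367, minus strand): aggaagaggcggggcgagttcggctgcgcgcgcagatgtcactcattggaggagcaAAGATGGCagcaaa
Mrpl36 (GRCr8, chr1:31795092-31795161, minus strand): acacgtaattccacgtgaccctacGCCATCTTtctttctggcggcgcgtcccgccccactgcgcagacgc
Mrps18a (GRCr8, chr9:22367351-22367420, minus strand): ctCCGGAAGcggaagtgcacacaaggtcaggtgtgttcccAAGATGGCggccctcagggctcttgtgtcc
Mrpl52 (GRCr8, chr15:31852856-31852965, plus strand): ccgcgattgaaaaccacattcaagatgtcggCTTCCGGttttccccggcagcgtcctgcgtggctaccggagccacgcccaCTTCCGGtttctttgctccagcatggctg
Mrpl53 (GRCr8, chr4:117172963-117173072, plus strand): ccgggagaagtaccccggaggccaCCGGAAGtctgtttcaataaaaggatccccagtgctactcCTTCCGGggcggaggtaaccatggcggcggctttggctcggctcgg
Mrpl47 (GRCr8, chr2:117447332-117447441, minus strand): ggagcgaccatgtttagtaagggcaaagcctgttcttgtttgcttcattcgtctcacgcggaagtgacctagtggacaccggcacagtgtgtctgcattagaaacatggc

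Across the group, differences were small and went both ways. Of the 66 members 65 were tested, since the probe of Mrpl38 was well above background on 3 DEN/TAA arrays and 0 control arrays. In DEN/TAA livers 18 members were higher and 7 lower than in control livers, and 40 did not pass the test (limma, Benjamini-Hochberg adjusted over 6855 genes, threshold 0.05). That is 38.5% called, against 55.5% of all genes tested. By direction, 39.2% of all genes tested were called higher and 16.3% lower. The median log2 difference (DEN/TAA minus control) was 0.11 over the members and 0.33 over all genes tested. Only Mrpl47 and Mrps22 were called with at least a 2-fold difference, where 30.4% of all genes tested were. The values of the groups did not overlap for 18 members, 27.7% of those tested, against 39.5% of all genes tested. Most members were detected throughout, since 53 of 65 (81.5%) were well above background on all 10 arrays, against 51.9% of all genes tested. Among the genes detected on all 10 arrays the medians lay closer, at 0.06 over the members and 0.10 over all such genes. The plot of each member's difference shows the spread on both sides of 0.

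**Figure D1:**
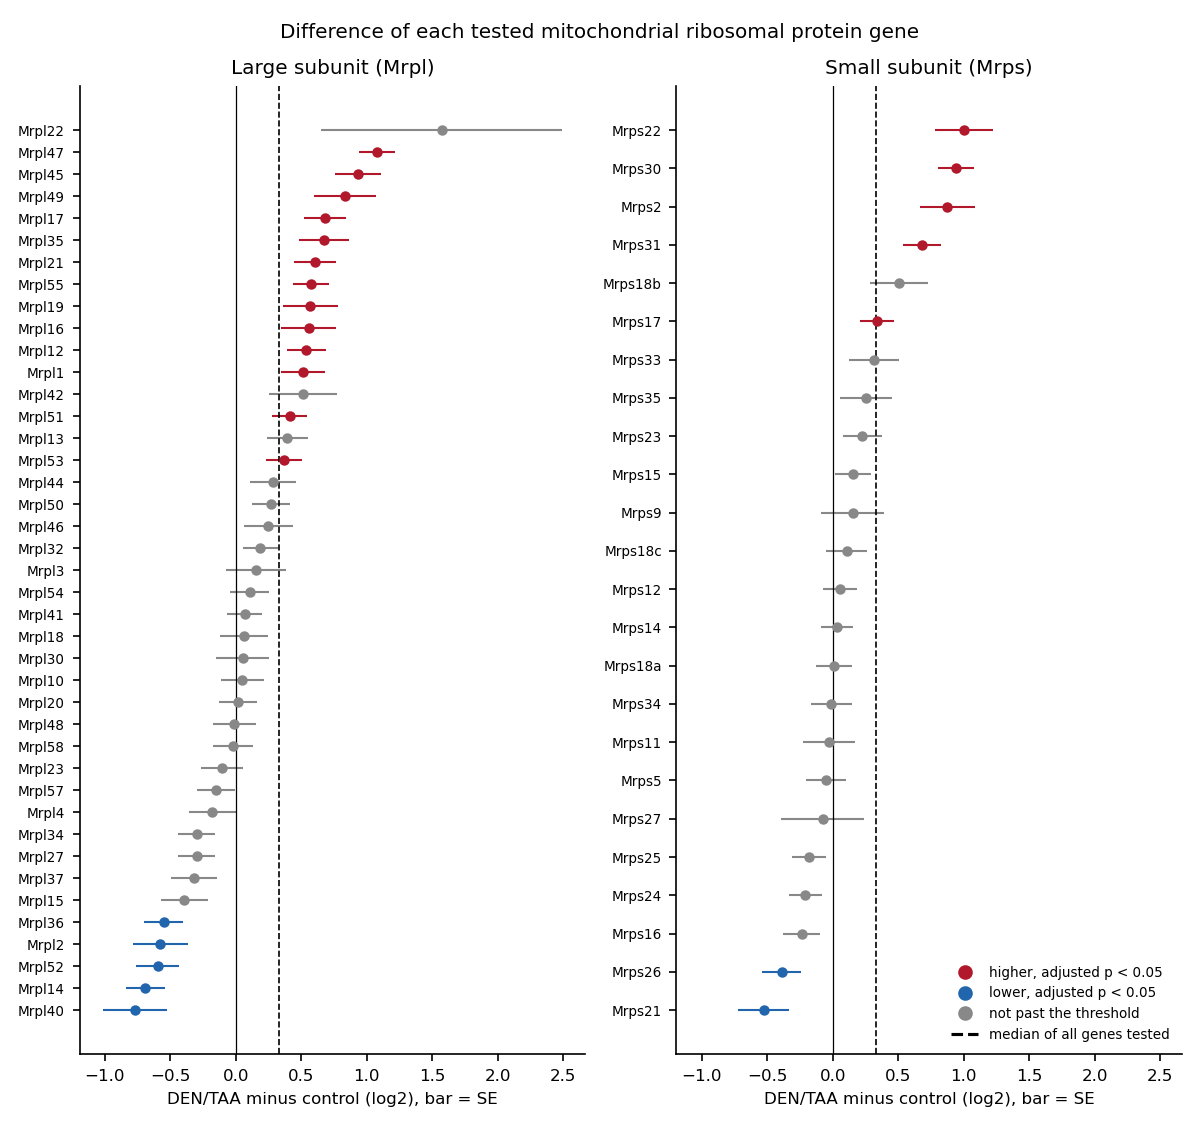
Log2 difference (DEN/TAA minus control, x axis) of each tested member with its standard error as a bar, large subunit on the left and small subunit on the right, sorted by size and coloured by call (red higher, blue lower, grey neither). The dashed line is the median of all genes tested, 0.33, and 13 large and 5 small subunit members are called higher while 5 large and 2 small are called lower; Mrpl22 has the widest bar.

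Both subunits held genes of either direction. Of 41 large subunit genes tested 13 were higher and 5 lower (43.9% called), with a median difference of 0.15, and of 24 small subunit genes 5 were higher and 2 lower (29.2% called), with a median of 0.08. The proteins of Mrps30 and Mrps18a lie in the large subunit in spite of their symbols, and counting them there gave 14 higher and 5 lower of 43 large subunit genes and 4 higher and 2 lower of 22 small subunit genes. Per rat, the median scaled value over large subunit members minus that over small subunit members was -0.45, -0.39, -0.64, -0.69 and -0.40 in DEN/TAA livers and -0.22, -0.15, -0.29, 0.09 and -0.13 in control livers. The groups did not overlap, with a mean of -0.515 ± 0.141 in DEN/TAA livers and -0.142 ± 0.144 in control livers (SD, n = 5 each). This measure rests on which probes lie in the middle of each list. When each member was first centred on its own mean over the 10 arrays, an alternative added after the data were seen, the difference between groups had the other sign, at 0.06 in place of -0.37, and with the mean over the probes of a gene it was -0.02. No direction is therefore given for the balance of the subunits.

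The peptide exit tunnel is where the growing protein leaves the large subunit, facing the inner membrane. Of 8 listed genes around it 6 were tested, of which 3 were higher and 0 lower (limma, and 3 and 0 at an unadjusted p under 0.05), that is 50% called against 55.5% of all genes tested, with a median difference of 0.81 that includes the uncertain value of Mrpl22. Mrpl45, whose protein anchors the ribosome to the inner membrane, had values of -1.72, -1.61, -1.73, -1.62 and -2.17 in DEN/TAA livers and -2.46, -2.89, -2.45, -2.66 and -3.06 in control livers. All DEN/TAA rats lay above all control rats, and the difference was 0.93 (SE 0.17, adjusted p = 0.000857), a 1.91-fold higher signal. Mrpl17, a protein with a bacterial counterpart, read -0.23, -0.63, -0.71, -0.49 and -0.66 in DEN/TAA livers and -0.86, -1.33, -1.25, -1.19 and -1.49 in control livers, again without overlap. Its difference was 0.68 (SE 0.16, adjusted p = 0.00376), and its other probe gave 0.78. Mrpl47, the counterpart of bacterial L29, read -3.46, -3.16, -3.56, -3.31 and -3.27 in DEN/TAA livers and -4.51, -4.36, -4.60, -4.25 and -4.42 in control livers. Its difference was 1.08 (SE 0.14, adjusted p = 6.1e-05), but its probe was well above background on only 3 of the 5 control arrays, and with normexp background correction the difference was -0.07. Mrpl44 and Mrpl23 did not pass the test, with differences of 0.29 and -0.11.

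Mrpl22, the counterpart of bacterial L22, was decided by 1 array. It read -1.17, -1.23, -1.40, -1.51 and -1.33 in DEN/TAA livers and -1.89, -7.28, -1.84, -1.71 and -1.78 in control livers. Control replicate 2 lay far below the other 9 rats, and the spot there was not well above background, with a median brightness of 297.5 and no outlier flag. The difference over all rats was 1.57 (SE 0.92, adjusted p = 0.166), and without control replicate 2 it was 0.48 and passed the test (adjusted p = 0.0166).

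**Figure D2:**
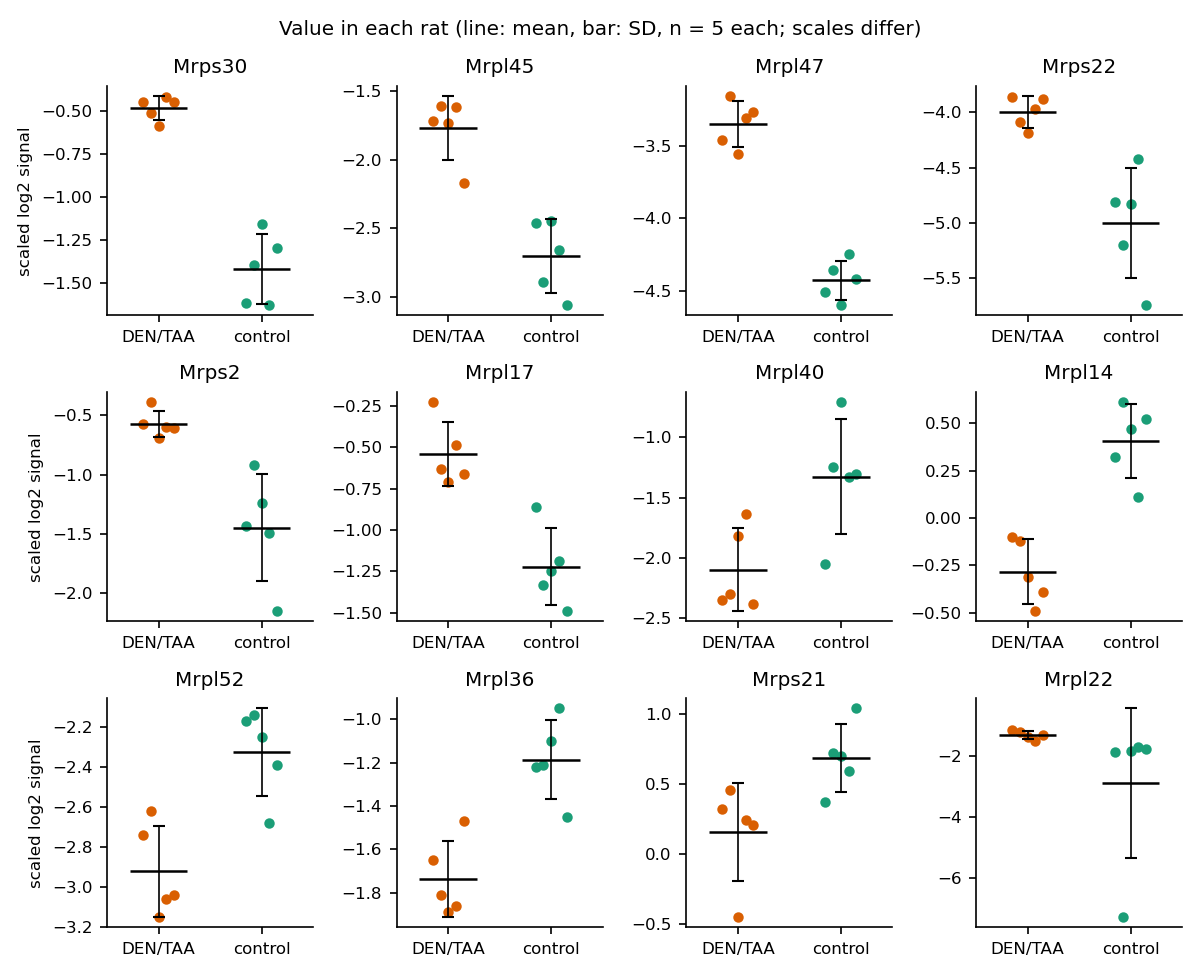
Scaled log2 signal (y axis, its range differing between panels) of 12 members in each rat, DEN/TAA on the left and control on the right of each panel, with the group mean as a line and the SD as a bar (n = 5 each). Mrps30, Mrpl45, Mrpl47, Mrps22, Mrps2 and Mrpl17 are higher in every DEN/TAA rat than in any control rat, Mrpl14 and Mrpl36 are lower in every one, and Mrpl22 has 1 control rat at -7.28.

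Among the other large subunit proteins, the L7/L12 stalk recruits translation factors to the ribosome. Of its 4 tested members 2 were higher, again 50% called, and under the percentile over all probes 0 were. Mrpl12, the stalk protein itself, read 1.61, 1.67, 1.5, 1.35 and 1.39 in DEN/TAA livers and 1.17, 1.09, 1.08, 0.85 and 0.64 in control livers. The groups did not overlap, and the difference was 0.54 (SE 0.15, adjusted p = 0.00951). Mrpl53 differed by 0.37 (adjusted p = 0.0383), while Mrpl10 and Mrpl54 differed by 0.05 and 0.11 and did not pass. Mrpl49 was higher by 0.83 (SE 0.24, adjusted p = 0.0114), with control values down to -5.11, and its difference was -0.003 with normexp. Mrpl35 was higher by 0.67 by the probe used, while its other probe gave -0.03. Mrpl21, Mrpl55, Mrpl19, Mrpl16, Mrpl1 and Mrpl51 were higher by 0.41 to 0.61. The calls of Mrpl1, Mrpl16, Mrpl19, Mrpl51 and Mrpl53 were lost on leaving out single rats.

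Of the 7 lower members 5 were of the large subunit, which made up 41 of the 65 tested. Mrpl14, the counterpart of bacterial L14 at the face that meets the small subunit, read -0.10, -0.12, -0.31, -0.49 and -0.39 in DEN/TAA livers and 0.32, 0.61, 0.47, 0.11 and 0.52 in control livers. Every DEN/TAA rat lay below every control rat, with a difference of -0.69 (SE 0.15, adjusted p = 0.00228). Mrpl36, the counterpart of the small bacterial protein L36, read -1.65, -1.81, -1.89, -1.86 and -1.47 in DEN/TAA livers and -1.22, -1.21, -1.10, -0.95 and -1.45 in control livers, without overlap, a difference of -0.55 (SE 0.15, adjusted p = 0.00805). Mrpl40, a protein found only in mitochondria, had the most negative difference, -0.77 (SE 0.25, adjusted p = 0.0196). It read -2.35, -2.30, -1.82, -1.64 and -2.38 in DEN/TAA livers and -2.05, -1.25, -0.71, -1.33 and -1.30 in control livers, so that control replicate 1 lay among the DEN/TAA rats. Its dimmer probe was not well above background on any control array and gives no fold. Mrpl52 and Mrpl2 were lower by the fit, at -0.60 and -0.58. Mrpl2, the counterpart of L2 near the catalytic centre, was not called without the 2 dimmest control arrays (adjusted p = 0.14), nor on leaving out DEN/TAA 2 or 4 or control 1, 3, 4 or 5.

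The genes with small subunit symbols ran from -0.53 to 1.00, and those with large subunit symbols from -0.77 to 1.57. Mrps30, named as a small subunit gene although its protein lies in the large subunit, read -0.45, -0.51, -0.59, -0.42 and -0.45 in DEN/TAA livers and -1.62, -1.40, -1.16, -1.63 and -1.30 in control livers. The DEN/TAA rats lay close together and above all control rats, with a difference of 0.94 (SE 0.14, adjusted p = 0.000172), and within the 3 slides it was 1.03, 0.66 and 1.02. Mrps22, a protein found only in mitochondria, read -3.86, -4.09, -4.19, -3.97 and -3.88 in DEN/TAA livers and -4.81, -5.20, -4.83, -4.42 and -5.74 in control livers. It differed by 1.00 (SE 0.22, adjusted p = 0.00263), but its probe was above background on only 2 control arrays and normexp gave -0.39. Mrps2, the counterpart of bacterial S2, read -0.57, -0.39, -0.69, -0.60 and -0.61 in DEN/TAA livers and -1.43, -0.92, -1.24, -1.49 and -2.15 in control livers. Its difference was 0.88 (SE 0.21, adjusted p = 0.00395), while a dimmer probe gave -0.93 (SE 0.54). The gene's probes thus differed in sign, but the dimmer probe was well above background on only 4 DEN/TAA and 2 control arrays. Mrps31 was higher by 0.68 (SE 0.14, adjusted p = 0.00192) without overlap, and Mrps17, the counterpart of S17, by 0.34 (adjusted p = 0.0471). Mrps21 and Mrps26 were lower by the fit, at -0.53 and -0.39, but neither was called without the 2 dimmest control arrays (adjusted p = 0.0598 and 0.119), and both calls, like that of Mrps17, were lost on leaving out single rats.

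The paralogs Mrps18a, Mrps18b and Mrps18c, of which each ribosome holds all in different places, did not pass the test, with differences of 0.01, 0.51 and 0.11. Mrps12, the counterpart of the decoding-centre protein S12, differed by 0.06, Mrps14 by 0.03, Mrps5 by -0.05, Mrps16 by -0.24, Mrps24 by -0.21, Mrps25 by -0.18 and Mrps27 by -0.08, none past the threshold. Mrpl58, a peptidyl-tRNA hydrolase that became part of the ribosome, differed by -0.02, and Mrpl3, Mrpl13 and Mrpl15 by 0.15, 0.39 and -0.39. Members with a bacterial counterpart and members found only in mitochondria were called in both directions: 9 higher and 3 lower of 25, and 5 higher and 2 lower of 18, in the large subunit, and 2 and 1 of 12, and 2 and 1 of 10, in the small.

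The sign of many members depended on how the arrays were scaled. With the percentile taken over all probes 4 members were higher and 17 lower (all genes tested 23.6% and 23.3%). Scaling to spike-in probes gave 46 higher and 0 lower (64.9% and 5.78%), or 50 and 0 at an unadjusted p under 0.05 by limma, with the median of all genes at 0.99. Quantile normalisation gave 9 and 8 (28.3% and 19.7%), normexp 7 and 8 (12.9% and 28.4%) and the authors' own values gave 12 and 11 (29.7% and 19.2%). Without a filter on dim probes 13 members were higher and 4 lower (18.8% and 41.9%), with the slide as a block 16 and 6 (41.1% and 17.4%), and without the 2 dimmest control arrays 15 and 4 (37.9% and 16.2%). Relative to the median of all genes, which these scalings moved between -0.28 and 0.99, the members' median lay between -0.22 and 0.21. Mrps30 and Mrpl45 were called higher under all 6 scalings. Of the 18 members higher in the fit reported, 14 kept their sign under all 6, the exceptions being Mrpl47, Mrpl49, Mrps22 and Mrpl51 (lowest value -0.15), and 16 stayed above the median of all genes. Of the 7 lower ones, Mrpl14 and Mrpl40 kept their sign under all 6, and all 7 stayed below that median. On each of the 3 slides, which held both groups, all 18 and all 7 had the direction of the fit. The calls came from these same rats, so this is no separate support. Control 3 was the only control rat on slide 2, and DEN/TAA 5 the only DEN/TAA rat on slide 3.

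**Figure D3:**
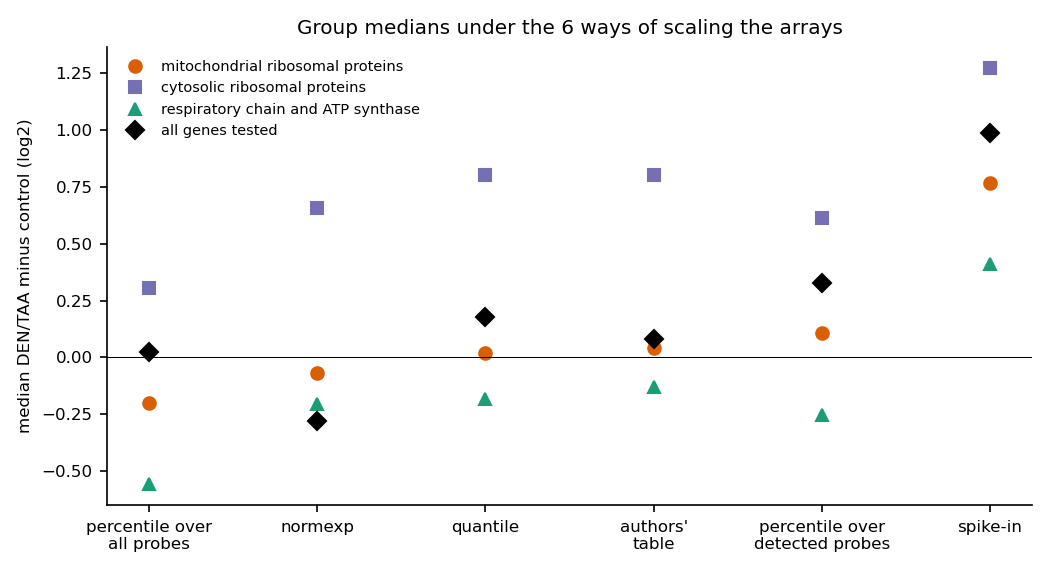
Median log2 difference (DEN/TAA minus control, y axis) of 3 gene groups and of all genes tested under 6 ways of scaling the arrays (x axis). The mitochondrial ribosomal proteins lie below the cytosolic ones under every scaling, with medians from -0.20 to 0.77.

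Other genes of mitochondrial gene expression were taken from listed groups and read against the same 55.5% of all genes tested. Of 17 assembly factors and ribosomal RNA enzymes of the mitoribosome 8 were higher and 1 lower, with a median difference of 0.49, and over the 6 scalings 3 to 15 were higher and 1 to 2 lower. They included Fastkd2, an RNA-binding assembly factor (1.31, SE 0.19, adjusted p = 0.000128) and Tfb1m, which methylates the small subunit RNA (1.24, adjusted p = 9.03e-05, above background on 2 control arrays and at -0.11 under the scaling that gave its lowest value). Rpusd3, a pseudouridine synthase, was lower (-1.32, SE 0.15, adjusted p = 2.71e-05). Of 15 genes of mitochondrial transcription and RNA handling 8 were higher and 1 lower, with a median of 0.49 (-0.17 to 1.15 over the scalings, with 0 to 12 higher and 0 to 1 lower), among them Tfam, which packages mitochondrial DNA (0.47, adjusted p = 0.0355), and Hsd17b10, a subunit of the mitochondrial RNase P (-1.13, adjusted p = 3.31e-05). Of 8 translation factors 0 were called either way (limma, and 0 at an unadjusted p under 0.05), while over the 6 scalings 0 to 8 were higher and 0 lower, the 8 under spike-in scaling. Of 11 aminoacyl-tRNA synthetases and related enzymes 2 were higher and 1 lower, and over the scalings 0 to 5 were higher and 0 to 5 lower. The 5 subunits of the mitoribosome with other symbols also gave 0 calls (2 higher and 0 lower at an unadjusted p under 0.05), with differences from -0.34 for Gadd45gip1 to 0.63 for Ptcd3, and over the scalings 0 to 3 were higher and 0 to 1 lower.

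The cytosolic ribosome, which makes the mitoribosomal proteins, and the respiratory chain were read in the same fit. Of all genes tested 39.2% were higher and 16.3% lower. Over the 6 scalings these shares ran from 12.9% to 64.9% higher and from 5.78% to 28.4% lower. Of 73 genes with cytosolic ribosomal protein symbols 56 were higher and 0 lower (limma, and 60 and 0 at an unadjusted p under 0.05), with a median difference of 0.61. Under the 6 scalings 16 to 73 were higher and 0 lower. Among these genes Rps7 differed by 0.85 (adjusted p = 0.000161). Rpl37al2, whose symbol names a gene like Rpl37a, was counted with them, differed by 0.55 and was not called. Of 68 nuclear genes with respiratory chain or ATP synthase symbols 1 was higher and 16 lower, with a median of -0.25. This median ran from -0.56 to 0.41 over the 6 scalings and was above 0 under spike-in scaling. The counts ran from 1 to 20 higher and from 1 to 38 lower, with 20 higher and 1 lower under spike-in scaling. Ndufv3, of complex I, was lower by the fit at -1.40. The gene that was higher, at 2.55, was Atp5if1, which encodes the inhibitor of ATP synthase and not a subunit. Of 20 import genes 7 were higher and 2 lower (2 to 15 and 0 to 4 over the scalings), with Tomm20, a receptor of the outer membrane, at 1.00. That is 45% called, against 55.5% of all genes tested. Of 11 listed regulators of mitochondrial biogenesis 6 were tested, since Ppargc1a, Ppargc1b, Nrf1, Gabpa and Gabpb1 did not pass the filter on dim probes. Of the 6 tested 4 were higher, namely Myc (2.30), Pprc1 (1.22), Esrra (0.78) and Tfam, while Yy1 differed by 0.49 (adjusted p = 0.149). Over the scalings 2 to 5 of these regulators were higher and 0 to 1 lower. No test of the differences between these groups was made. In the plot by group, the medians of both mitoribosome subunits lie between those of the cytosolic ribosome and the respiratory chain.

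**Figure D4:**
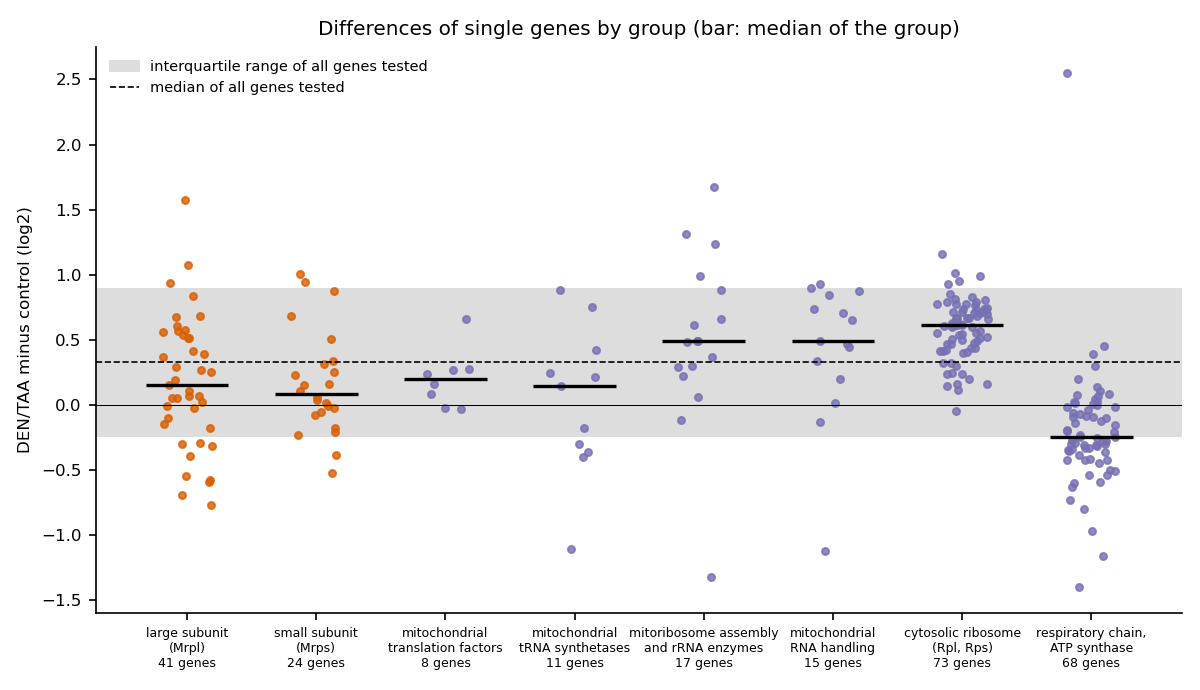
Log2 difference (DEN/TAA minus control, y axis) of single tested genes in 8 groups (x axis), with each group's median as a bar, the median of all genes tested as a dashed line and the interquartile range of all genes tested in grey. The large and small subunit genes have medians of 0.15 and 0.08. The 73 genes with cytosolic ribosomal protein symbols have a median of 0.61 and the 68 respiratory chain and ATP synthase genes -0.25.

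Several members face another coding gene across a shared start region, which lay within 1000 bases for 29.6% of the members with a promoter entry and 12.1% of genes tested. The partners did not share one direction. Mrpl47 (1.08) faces Ndufb5, a complex I subunit (-0.09, adjusted p = 0.585), and Mrpl49 (0.83) faces Fau, a cytosolic ribosomal protein precursor (0.15, adjusted p = 0.398). Mrpl2 (-0.58) faces Klc4, a kinesin light chain, which was lower as well (-0.89, adjusted p = 0.000816). Mrpl41 (0.07) faces Pnpla7, a lysophospholipase (-1.18, adjusted p = 0.00137), and Mrps18b (0.51) faces Ppp1r10, a phosphatase regulatory subunit, which was lower (-0.47, adjusted p = 0.0216). Mrpl18 (0.06) faces Tcp1, a subunit of the cytosolic chaperonin, which was higher (0.61, adjusted p = 0.00563). Mrpl46 and Mrps11, both members, face each other, with differences of 0.25 and -0.03.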

How the data were processed

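Liver RNA of 5 DEN/TAA and 5 control rats was measured on 1-colour arrays. The deposited spot intensity was background-subtracted within the array and left unscaled, per the file headers, which name Agilent Feature Extraction 11.5.1.1, where the submitters' processing notes give 15.5. A deposited value table holds the authors' log2 values. Its columns ranked spots as the raw median signal did (Spearman's rho of 1), with medians of 8.5925 to 8.5941, so the order of its values is known, while their log base was taken from their range. How it was made, and any centring, is not stated in the labels or headers.

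Control spots and outlier-flagged spots were dropped, spots of a probe averaged, and each array's 75th percentile subtracted. A probe needed to be well above background on at least 5 of 10 arrays, and a gene took its passing probe with the highest mean. Of 41012 probes, 17502 matched 1 symbol in rat RefSeq (GRCr8), 0 several and 23510 none. The test was limma 3.58.1 (R 4.3.3, lmFit and eBayes, two-sided) over 6855 genes, on code tested on simulated data. Alternatives were other scalings, normexp with an offset of 50 (on median signals, as the files hold no mean signal), other filters, probe averaging, slide and replicate blocks, a trended prior and leaving out each rat. No spot was saturated, and the number of arrays limits the precision. DEN/TAA 1 and 2 shared slide 1 with control 1 and 2, DEN/TAA 3 and 4 shared slide 2 with control 3, and DEN/TAA 5 shared slide 3 with control 4 and 5. The rule for naming took in each subunit the 6 highest and 6 lowest differences, members whose probes disagreed and members listed for their roles; values in every rat are given for those the results turn on. The members and lists were chosen with earlier results of these data known. Protein sequences were not used here.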

Additional observations from a re-analysis of the deposited data

Results flagged for a closer look

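Among 130 groups of 5 rats, 7 held a rat far from the other 4, by the gap to its nearest neighbour as a share of the group's range (critical value 0.71); chance gives this in about 1 group in 20. For Mrpl22 the share was 0.967, with control replicate 2 at -7.28 and the other controls between -1.89 and -1.71. Mrpl37 had DEN/TAA replicate 5 highest (0.838), Mrps33 control replicate 1 lowest (0.833) and Mrpl45 DEN/TAA replicate 5 lowest (0.79), which lay at -2.17 and still above every control rat. The others were Mrpl34 with DEN/TAA replicate 4 lowest (0.771), Mrpl57 with DEN/TAA replicate 5 lowest (0.736) and Mrps21 with DEN/TAA replicate 3 lowest (0.726).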

How the results depend on the processing

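Counts of members higher and lower, and the median difference, moved with the scaling. With the percentile over all probes 4 members were higher and 17 lower (large subunit 2 and 12, small 2 and 5), with medians of -0.199 over all members, -0.154 over the large and -0.224 over the small subunit. Quantile normalisation gave 9 higher (6 large, 3 small) and medians of 0.018, 0.037 and -0.007. Spike-in scaling gave 46 higher (29 and 17) and 0 lower (0 and 0), with medians of 0.768, 0.812 and 0.743. Normexp gave 7 higher (4 and 3) and medians of -0.070, -0.066 and -0.108. The authors' value table gave 11 lower, 3 small subunit members higher and 4 lower, and medians of 0.041 for all members and 0.028 for the large subunit. Without a filter on dim probes 4 members were lower (0 small), without the 2 dimmest control arrays 4 (0 small), and with a filter on all 10 arrays the large subunit median was 0.064. The slide as a block left 1 small subunit member lower. Leaving out 1 rat gave 12 to 17 members higher (8 to 13 large, 4 to 5 small), 4 to 7 lower (4 to 6 large, 0 to 2 small) and medians of 0.087 to 0.177, 0.105 to 0.195 and 0.035 to 0.117. The large minus small difference, -0.374, was -0.412 to -0.316 on leaving out 1 rat, -0.019 with the mean over probes and 0.064 with each member centred first, an alternative chosen after seeing the data, as was leaving out the 2 dimmest control arrays. The cause of these shifts was not tested.

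The replicate numbers did not pair the rats. Same-numbered rats had correlations of deviations of 0.086, 0.1, 0.205, -0.218 and 0.112. Only DEN/TAA 3 correlated best with the control rat of its own number. The replicate block gave 17 members higher and 6 lower, 1 of them in the small subunit.

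Over the 6 scalings the sign turned for 46 of the 65 tested members, among them 4 of the 18 higher, 5 of the 7 lower and 37 of the 40 not called. The lowest value of Mrpl51 was -0.147. Members named by the rule changed sign as follows. Spike-in scaling gave 0.084 for Mrpl2, 0.267 for Mrpl15, 0.110 for Mrpl36, 0.062 for Mrpl52, 0.638 for Mrpl58, 0.608 for Mrps5, 0.423 for Mrps16, 0.132 for Mrps21, 0.452 for Mrps24, 0.479 for Mrps25, 0.271 for Mrps26 and 0.584 for Mrps27. The percentile over all probes gave -0.154 for Mrpl3, -0.258 for Mrpl10, -0.021 for Mrpl44, -0.248 for Mrps12, -0.273 for Mrps14, -0.295 for Mrps18a and -0.199 for Mrps18c. Normexp gave -0.679 for Mrpl3, -0.395 for Mrpl10, -0.066 for Mrpl47, -0.003 for Mrpl49, -0.133 for Mrps18a, -0.137 for Mrps18b and -0.385 for Mrps22. Quantile normalisation gave -0.161 for Mrpl3, -0.286 for Mrpl10 and -0.090 for Mrps18a. The authors' table gave -0.072 for Mrpl3, -0.058 for Mrpl10, 0.040 for Mrps5, -0.147 for Mrps18a and 0.053 for Mrps27. The mean over probes gave -0.030 for Mrps2, the slide block -0.013 for Mrps18a, and leaving out the 2 dimmest control arrays 0.062 for Mrpl58 and 0.097 for Mrps27. On leaving out 1 rat, the differences ran from -0.027 to 0.142 for Mrpl10, -0.108 to 0.044 for Mrpl58, -0.114 to 0.022 for Mrps5, -0.004 to 0.073 for Mrps14, -0.028 to 0.087 for Mrps18a and -0.266 to 0.195 for Mrps27.

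Of the 25 calls, 16 were lost on leaving out no rat. Mrpl1 lost its call without DEN/TAA 1 or 2, Mrpl51 without DEN/TAA 1, 2 or 3, Mrpl16 without DEN/TAA 1, 3, 4 or 5 or control 2, 3 or 5, and Mrpl19 without DEN/TAA 1, 2, 4 or 5 or control 1, 3 or 4. Mrps21 lost it without DEN/TAA 3, 4 or 5 or control 2, 3, 4 or 5, and Mrps26 without DEN/TAA 1, 3 or 4 or control 1, 2, 4 or 5. Mrpl53 kept its call only without control 3, and Mrps17 only without control 5.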
